A study of Mus musculus with 3 samples.

Results

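Transcripts of 9 genes that mark the oligodendrocyte lineage were measured in cultured neural stem cells of the mouse, in RNA labelled KO (Dnmt3a knockout) and in RNA labelled WT (wild type). The genes were the lineage factors Olig1 and Olig2, the progenitor surface genes Cspg4, Pdgfra and Gpr17, and the myelin genes Mag, Mbp, Mog and Cnp. They were taken by name, as every non-control probe whose name in the array files, or whose current symbol found through the probe's sequence record, was one of the 9. This gave 19 probes on 37 spots of each array, out of 41174 probes for 27670 names. Both groups were neural stem cells, the self-renewing precursors of neurons, astrocytes and oligodendrocytes, that had been made from embryonic stem cells in culture. The labels give the genotype of the first group as Dnmt3a-/- and of the second as wildtype, with no other allele or agent, and put both under the same growth conditions, 7 days in serum-free N2B27 medium with EGF and bFGF at 10 ng/ml each, then culture as neurospheres and as attached cells with the same factors. Neither the line or lines behind the 3 replicates nor whether a genotype is 1 clone is stated in the sources used here. Each of 3 two-colour arrays carried 1 biological replicate, with the RNA labelled KO in green (Cy3) and the RNA labelled WT in red (Cy5).

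Oligodendrocytes wrap axons of the central nervous system in myelin. Olig1 and Olig2 encode basic helix-loop-helix transcription factors, and in mice Olig2 is needed to specify oligodendrocyte progenitors and spinal motor neurons. Progenitors carry the chondroitin sulphate proteoglycan NG2 (encoded by Cspg4) and the receptor for the growth factor PDGF-A (encoded by Pdgfra) on their surface, and the receptor gene Gpr17 is switched on as they begin to differentiate. Mbp encodes the basic protein that compacts the myelin sheath, Mag and Mog encode glycoproteins of its inner and outer surfaces, and Cnp encodes an enzyme of its cytoplasmic channels. Neural stem cells grown with EGF and bFGF can express Olig2 while they divide, whereas myelin genes belong to the mature cell. Dnmt3a encodes an enzyme that puts methyl groups on the cytosine of CG dinucleotides that had none.

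The array reads each transcript through 60-base probes, and several of the genes have more than 1. Sequences of 5 probes picked by name are shown, because the results below depend on which probe of a gene was read. Each of them has at least 1 forward reading frame with no stop codon. The probes of Gpr17 and Mbp were not considered for this. Capitals mark CG dinucleotides, and positions are those of the array files on mouse build mm7. The Olig2 probe lies at chr16:91276771-91276830, the Cspg4 probe at chr9:56926486-56926545 and the Pdgfra probe at chr5:74581841-74581900. The Mag probe lies at chr7:27846799-27846858 and the Mog probe at chr17:35172002-35172061, both on the minus strand. Whether a probe falls in a coding exon or a UTR is not given here, because no mm7 annotation was used.
Olig2 probe A_51_P367451: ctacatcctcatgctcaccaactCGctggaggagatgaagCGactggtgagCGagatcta
Cspg4 probe A_51_P160824: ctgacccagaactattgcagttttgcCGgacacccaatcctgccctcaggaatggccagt
Pdgfra probe A_52_P264283: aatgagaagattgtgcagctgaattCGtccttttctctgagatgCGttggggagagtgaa
Mag probe A_52_P375021: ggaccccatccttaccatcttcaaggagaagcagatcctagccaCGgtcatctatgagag
Mog probe A_52_P85040: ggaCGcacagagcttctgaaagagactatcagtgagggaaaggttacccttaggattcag

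Promoter windows of 300 bases around the gene's start, from RefSeq on build GRCm38.p6, were found for 6 of the 9 genes, and Olig1, Gpr17 and Mbp had no entry. The windows of 3 genes with lower signal in the RNA labelled KO are shown, since CG dinucleotides are the sites that Dnmt3a can methylate. Capitals again mark CG, read on 1 strand, which is the same on both. The windows are chr16:91225300-91225599 on the plus strand for Olig2, chr9:56864854-56865153 on the plus strand for Cspg4 and chr5:75152001-75152300 on the plus strand for Pdgfra.
Olig2 promoter: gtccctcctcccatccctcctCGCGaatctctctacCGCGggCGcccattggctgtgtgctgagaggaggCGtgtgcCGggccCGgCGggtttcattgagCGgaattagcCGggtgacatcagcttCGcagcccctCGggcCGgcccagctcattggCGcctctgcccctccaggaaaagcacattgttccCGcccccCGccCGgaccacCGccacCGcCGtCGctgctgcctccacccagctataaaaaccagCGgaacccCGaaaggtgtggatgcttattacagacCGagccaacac
Cspg4 promoter: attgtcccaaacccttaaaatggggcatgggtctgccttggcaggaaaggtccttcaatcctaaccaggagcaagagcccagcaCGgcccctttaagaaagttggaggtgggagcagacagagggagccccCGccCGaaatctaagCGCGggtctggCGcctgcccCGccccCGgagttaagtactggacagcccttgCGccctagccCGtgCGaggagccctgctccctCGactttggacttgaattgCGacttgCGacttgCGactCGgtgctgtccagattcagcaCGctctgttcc
Pdgfra promoter: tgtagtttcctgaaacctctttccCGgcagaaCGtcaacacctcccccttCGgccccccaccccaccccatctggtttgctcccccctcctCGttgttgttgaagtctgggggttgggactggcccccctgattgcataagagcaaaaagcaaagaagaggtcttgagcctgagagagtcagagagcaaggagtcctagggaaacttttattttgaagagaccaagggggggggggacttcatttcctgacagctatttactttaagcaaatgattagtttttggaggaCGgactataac

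The 3 promoters differed in CG content. Olig2 held 25 CG dinucleotides, a number reached by 18.4% of the 32851 mouse promoter windows in the same table, and Cspg4 held 17, reached by 31.4%. Pdgfra held 5, fewer than the median of 7 over all windows. Among the myelin genes Cnp held 17, Mog 3, and the 3 entries of Mag held 6, 3 and 3. The E-box letters CANNTG, the general core bound by basic helix-loop-helix factors and the same on both strands, were found in 72.3% of all windows. They occurred 2 times in the Pdgfra window, 1 time in that of Cnp, 2, 1 and 2 times in those of Mag, and not in those of Olig2, Cspg4 and Mog. Methylation was not measured on these arrays, and the counts of letters describe the windows only.

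**Figure D1:**
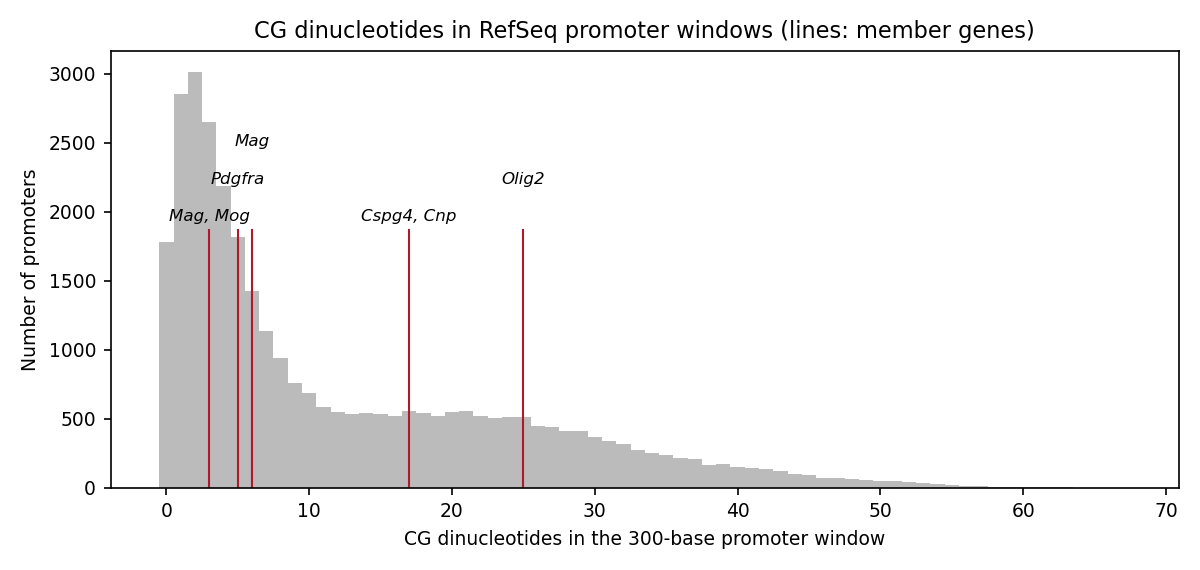
Number of RefSeq mouse promoter windows (vertical axis) by the number of CG dinucleotides in the 300-base window (horizontal axis). Red lines mark the windows of member genes, where Olig2 stands at 25, Cspg4 and Cnp at 17, and Pdgfra, Mag and Mog at 6 or fewer.

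The log2 ratio of the RNA labelled KO over the RNA labelled WT was taken on each array, and its mean over the 3 arrays was tested against 0 with limma across all tested probes or genes, with Benjamini-Hochberg adjusted p under 0.05 as the threshold. Probes entered the test when at least 1 of the channels was well above background on all 3 arrays, and the brightest tested probe stood for its gene. The log2 ratios of 2 arrays correlated at r between 0.910 and 0.932 across genes, which are not independent replicates, and between 63.6% and 68.8% of the probes were well above background in a channel. The median ratio over all 18033 tested genes was -0.01, and the median SD of a gene between arrays was 0.056. The p-values measure only the spread between these 3 arrays, which lay on 1 slide and were scanned in 1 run. The dyes were not exchanged on any array, so a bias of a probe toward 1 dye cannot be told apart from genotype. The direction was drawn from the labels, and Dnmt3a itself went against them. All 3 of its probes were higher in the RNA labelled KO, the brightest at a log2 ratio of 0.99 ± 0.08 (SD, n = 3) and the other two at 0.76 and 0.61. The position of the deletion within Dnmt3a was not known here. A probe that lies outside it would check nothing. If the channels had been exchanged relative to the labels, every direction and rank given here would turn, and this was not tested. The groups are called by their labels throughout.

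Olig1 and the brighter Olig2 probe were lower in the RNA labelled KO, Olig1 by 2.50 times and Olig2 by 1.54 times. Both genes encode factors of the same family and lie side by side on chromosome 16. Olig1 (A_52_P603038, chr16:91321455-91321514) had normalized log2 intensities of 7.23, 7.07 and 7.16 in the RNA labelled KO on arrays 1, 2 and 3, against 8.51, 8.45 and 8.47 in the RNA labelled WT. All 3 values of the RNA labelled KO lay below all 3 of the RNA labelled WT, by a wide gap relative to the spread within either. The log2 ratio was -1.28, -1.38 and -1.32 on the arrays, a mean of -1.32 ± 0.05 (SD, n = 3; limma, adjusted p = 1.5e-07 over all genes). Ordered from the lowest mean ratio of labelled KO over labelled WT, Olig1 was at rank 64 of the 18033 tested genes.

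Olig2 (A_52_P223626, chr16:91278126-91278185) had log2 intensities of 6.94, 6.87 and 6.86 in the RNA labelled KO, against 7.54, 7.50 and 7.51 in the RNA labelled WT. These groups did not overlap either. The log2 ratio was -0.60, -0.64 and -0.65, a mean of -0.63 ± 0.03 (SD, n = 3; limma, adjusted p = 3.9e-06), at rank 327 from the bottom. The other Olig2 probe, A_51_P367451, whose sequence is given above, was not well above background in either channel on any array and was not tested. Its log2 intensities were 5.81, 5.92 and 5.86 in the RNA labelled KO and 5.86, 5.86 and 5.93 in the RNA labelled WT. The call for Olig2 therefore rests on 1 of its 2 probes. In bulk RNA, fewer cells that express a gene and less of its RNA per cell cannot be told apart, here and for every gene below.

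The progenitor surface genes Cspg4 and Pdgfra were lower in the RNA labelled KO by every probe, 3 of 3 for Cspg4 and 2 of 2 for Pdgfra, but the size of the difference varied between probes of a gene. With the background model fitted on all spots, only the brightest probe of each passed the threshold, and the others had adjusted p of 0.053 and 0.30 for Cspg4 and 0.060 for Pdgfra (limma over probes). The brightest Cspg4 probe (A_52_P278064, chr9:56927188-56927247) had log2 intensities of 7.45, 7.49 and 7.45 in the RNA labelled KO, against 8.74, 8.78 and 8.64 in the RNA labelled WT. Its mean log2 ratio was -1.26 ± 0.06 (SD, n = 3; limma, adjusted p = 2.0e-07), 2.39 times lower, at rank 71 from the bottom. The second probe, A_51_P160824, had log2 intensities of 6.97, 6.89 and 7.06 in the RNA labelled KO against 7.69, 7.61 and 7.67 in the RNA labelled WT. The groups did not overlap at either probe, and the second gave a smaller ratio, -0.68 ± 0.06 (SD, n = 3; limma over probes, adjusted p = 4.0e-06). The second was assigned to Cspg4 through its RefSeq transcript, while the brightest and the third were assigned only by the gene name in the array files. The third probe, A_52_P539873, was near background: it was well above it on 1 array in the RNA labelled KO and on 3 in the RNA labelled WT, so it was tested only through the RNA labelled WT. Its log2 intensities were 6.27, 6.11 and 6.26 in the RNA labelled KO against 6.34, 6.32 and 6.38 in the RNA labelled WT, a log2 ratio of -0.14 ± 0.07 (SD, n = 3; limma over probes, adjusted p = 0.022). That probe did not pass without replicate 2 (limma, adjusted p = 0.15) or without replicate 3 (limma, adjusted p = 0.076). Its ratio was -0.036 with median centring (limma, adjusted p = 0.70), -0.013 with the model fitted on all spots and -0.90 with the scanner's processed signals.

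Pdgfra, the receptor through which PDGF-A drives progenitor division, was 1.5 times lower in the RNA labelled KO by its brighter probe. That probe (A_51_P345649, chr5:74616116-74616175) is spotted 10 times on each array. Its log2 intensities were 10.26, 10.30 and 10.25 in the RNA labelled KO, against 10.88, 10.84 and 10.84 in the RNA labelled WT. The log2 ratio was -0.62, -0.54 and -0.59, a mean of -0.59 ± 0.04 (SD, n = 3; limma, adjusted p = 6.7e-06), at rank 365 from the bottom. Within an array the 10 spots had an SD of 0.036, 0.070 and 0.054, and the ratio of every spot lay between -0.71 and -0.37. The SD between arrays is that of means over the 10 spots, so it is not comparable with these SDs of single spots. The second probe, A_52_P264283, had log2 intensities of 6.60, 6.49 and 6.48 in the RNA labelled KO against 6.84, 6.86 and 6.72 in the RNA labelled WT. Its groups did not overlap, and its ratio was -0.28 ± 0.08 (SD, n = 3; limma over probes, adjusted p = 6.7e-04).

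Gpr17, which marks progenitors on the way to differentiation, was the 1 tested member that was higher in the RNA labelled KO, by a small amount near background. Its probe A_51_P437302 (chr18:32339534-32339593, minus strand) had log2 intensities of 6.23, 6.22 and 6.26 in the RNA labelled KO, against 6.09, 6.14 and 6.12 in the RNA labelled WT. The groups did not overlap, and the log2 ratio was 0.12 ± 0.04 (SD, n = 3; limma, adjusted p = 0.021). The probe was well above background on 3 arrays in the RNA labelled KO and on 1 in the RNA labelled WT, so it was tested only through the RNA in which it was brighter. The adjusted p was 0.062 without replicate 1, 0.114 without replicate 3 and 0.31 when the background model was fitted on all spots, and the ratio was 0.73 with the scanner's processed signals. Its other probe, A_51_P170463, was not well above background on any array, with a log2 ratio of 0.02 ± 0.03 (SD, n = 3).

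The myelin genes showed small differences or none past the threshold, and several of their probes were not above background. Mag was lower by its brighter probe only. That probe (A_51_P435428, chr7:27838993-27839051, minus strand) had log2 intensities of 8.97, 9.08 and 9.23 in the RNA labelled KO, against 9.14, 9.23 and 9.40 in the RNA labelled WT. The levels of the groups overlapped, while the ratio within each array was below 0, at -0.18, -0.15 and -0.17. The mean was -0.16 ± 0.02 (SD, n = 3; limma, adjusted p = 0.0037), which is 1.12 times lower. The second Mag probe, A_52_P375021, stood at 0.05 ± 0.02 (SD, n = 3; limma over probes, adjusted p = 0.28), with log2 intensities of 7.14, 7.28 and 7.07 in the RNA labelled KO and 7.09, 7.21 and 7.04 in the RNA labelled WT. The mean of both probes was -0.06 and did not pass the threshold (limma, adjusted p = 0.14), so the call for Mag rests on 1 probe. The call was also lost with the scanner's processed signals (-0.10) and in the authors' deposited table (-0.080), and the ratio was -0.53 with median centring.

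Cnp, which begins to be expressed before the other myelin genes, had log2 intensities of 7.41, 7.31 and 7.29 in the RNA labelled KO, against 7.30, 7.32 and 7.36 in the RNA labelled WT. Its probe was A_51_P232901 (chr11:100690342-100690401). The groups overlapped and the arrays differed in sign, with ratios of 0.11, 0.00 and -0.08. The mean of 0.01 ± 0.09 (SD, n = 3) did not pass the threshold (limma, adjusted p = 0.87), and its 95% interval of -0.09 to 0.11 left room for a difference of up to that size in either direction. The sign changed with the processing.

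Mbp was read by 3 probes and only A_52_P604195 (chr18:82907900-82907959) was tested. It was well above background on all 3 arrays in the RNA labelled WT and on none in the RNA labelled KO. The log2 intensities were 6.15, 6.07 and 6.25 in the RNA labelled KO, against 6.27, 6.24 and 6.25 in the RNA labelled WT. The groups overlapped, and the ratio was -0.10 ± 0.08 (SD, n = 3; limma, adjusted p = 0.076). Because the level in the RNA labelled KO is only an upper limit, no fold is given. Without replicate 3 the ratio was -0.14 with an adjusted p of 0.044 (limma). The ratio also depended on how background was removed: it was -1.24 from the scanner's processed signals (limma, adjusted p = 0.038). Another Mbp probe, A_51_P349205, was spotted 10 times per array and was not well above background in either channel, with log2 intensities of 5.92, 5.91 and 5.93 in the RNA labelled KO and 5.90, 5.90 and 5.92 in the RNA labelled WT. The third, A_52_P329451, was likewise below it.

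Mog, which encodes a protein of the outermost myelin surface, was not well above background on any array by any of its 3 probes. Their spot signals were 45.9 to 52.8 in the RNA labelled KO and 44.9 to 50.7 in the RNA labelled WT, beside local backgrounds of 37 to 45 and 42 to 46. With the filter on dim probes no ratio was tested. The probe shown above, A_52_P85040, had log2 intensities of 5.96, 5.99 and 5.89 in the RNA labelled KO and 5.87, 5.77 and 5.80 in the RNA labelled WT. When dim probes were not filtered out, its ratio of 0.14 ± 0.08 (SD, n = 3) passed the threshold (limma over probes, adjusted p = 0.026), on signals that were below the scanner's background limit in both RNAs. The other two carry the older name B230317G11Rik in the array files, which RefSeq lists under Mog.

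**Figure D2:**
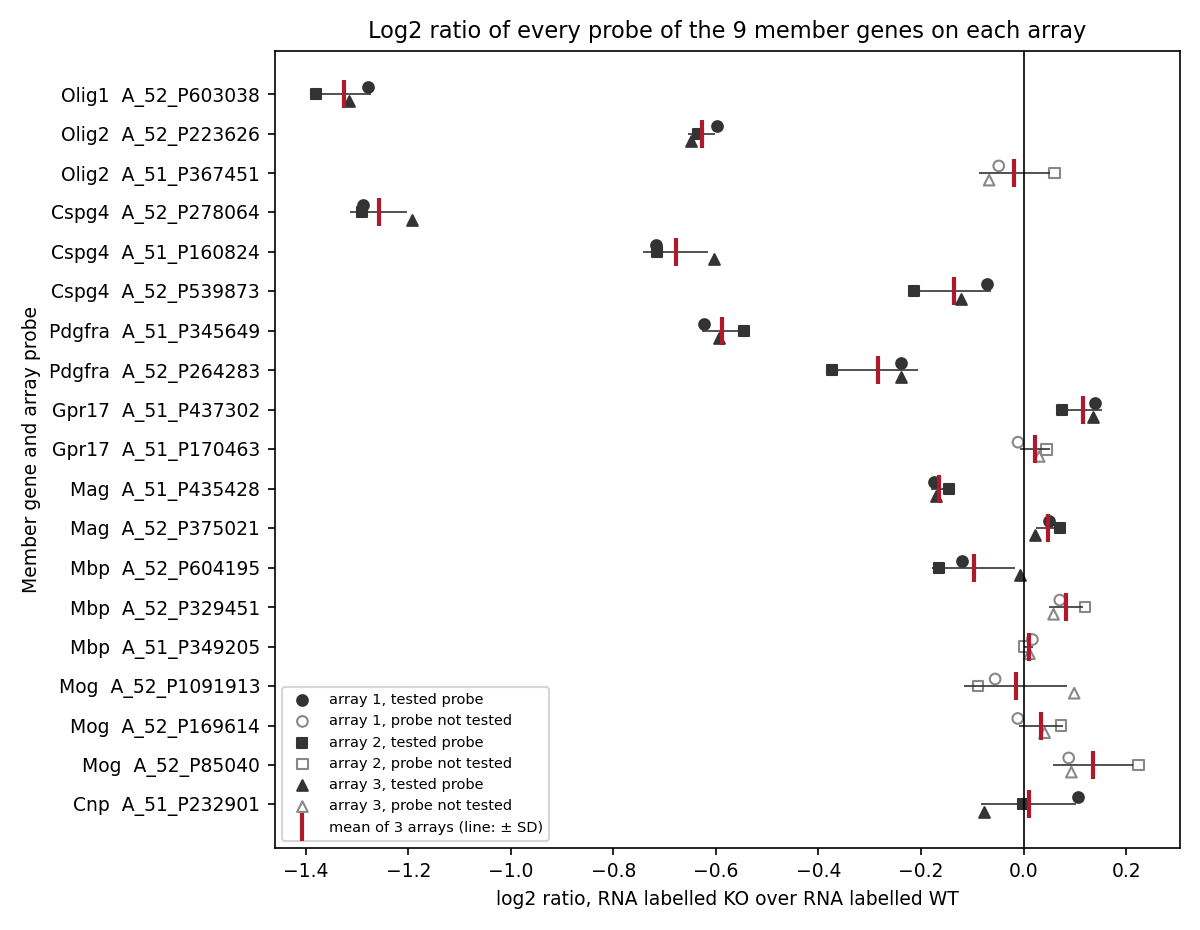
Log2 ratio of the RNA labelled KO over the RNA labelled WT (horizontal axis) for each of the 19 probes of the 9 genes (vertical axis), with circles, squares and triangles for arrays 1, 2 and 3 and a red tick with a line for the mean ± SD. Filled symbols are tested probes. The Olig1 probe and the brightest Cspg4 probe lie at -1.19 or lower on every array, while the probes of Mag, Mbp, Mog and Cnp all lie between -0.18 and 0.22.

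**Figure D3:**
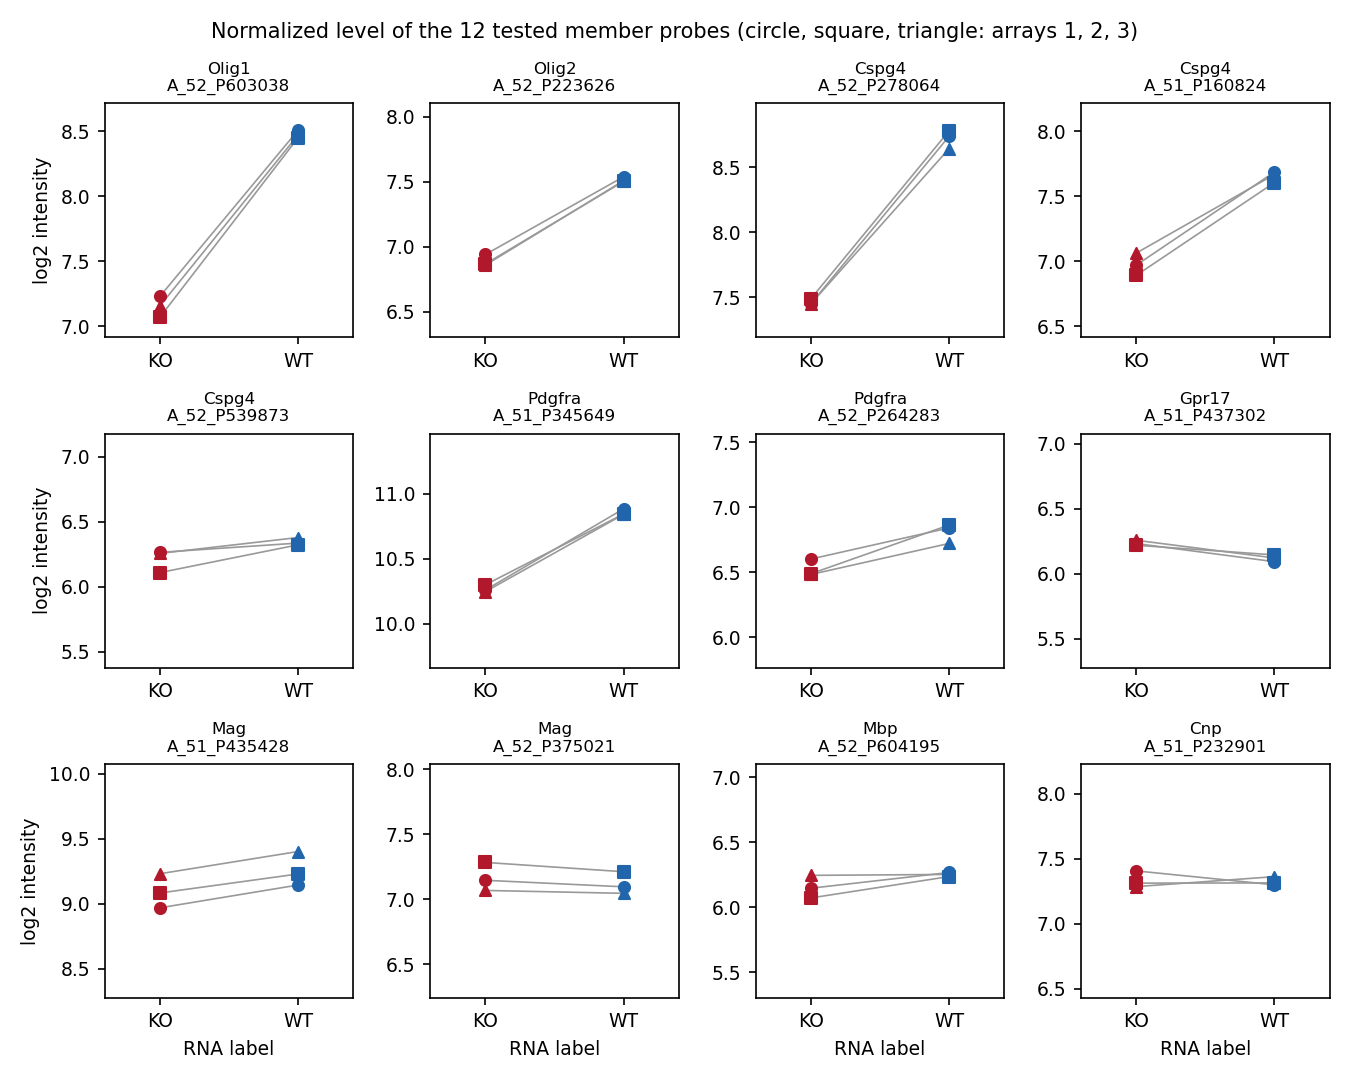
Normalized log2 intensity of the 12 tested probes (vertical axis, each panel spanning the same number of units) in the RNA labelled KO, on the left and in red, and in the RNA labelled WT, on the right and in blue, with a grey line joining the RNAs of 1 array. The red points lie below the blue on all arrays for Olig1, Olig2, Cspg4 and Pdgfra, above them for Gpr17, and among them for Cnp.

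Of the 12 tested probes, 8 were lower in the RNA labelled KO, 1 was higher and 3 did not pass the threshold. Over all tested probes 44.3% passed it, 23.6% lower and 20.7% higher, and 3 of the 12 were tested through 1 channel only. The levels of the RNAs did not overlap at 8 of the 12 probes, where the share over all tested probes was 43%, with 22.9% lower in the RNA labelled KO. By gene, Olig1, Olig2, Cspg4, Pdgfra and Mag were lower, Gpr17 was higher, Mbp and Cnp did not pass, and Mog was not tested, beside 48% of all tested genes past the threshold, 25.5% lower and 22.5% higher. Olig1, Olig2, Cspg4 and Pdgfra were each at least 1.5 times lower as reported, which 2.04% of all tested genes were, while 1.95% were at least that much higher. Pdgfra stood just past that size and did not reach it without replicate 1, at -0.57, or without replicate 3, at -0.584. With the background model fitted on all spots, these genes did not reach it. Olig1 was then at -0.42, Olig2 at -0.13, Cspg4 at -0.47 and Pdgfra at -0.54. The 9 genes were chosen with earlier results of these data known, so these counts describe them and are no test of the group.

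Other genes of the lineage were read from 5 lists of 100 genes in all, of which 82 were tested. There, 28 were lower in the RNA labelled KO (34.1%), 15 were higher (18.3%) and 38 did not pass the threshold. Over all tested genes 25.5% were lower and 22.5% higher, which stands beside this count and those of each list and cell type below. The phosphatase gene Ptprz1 was saturated in both channels by its brightest probe and is given no ratio. Its other tested probes stood at -0.49 and 0.12 (limma over probes, adjusted p = 1.3e-04 and 0.18). The split between lower and higher differed from list to list.

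Among specification factors, 11 of 22 tested genes were lower, 1 was higher and 10 did not pass, with a median log2 ratio of -0.09. Sox9, which in mouse spinal cord promotes the switch to glia, had ratios of -1.12, -1.21 and -1.23, a mean of -1.19 ± 0.06 (SD, n = 3; limma, adjusted p = 2.9e-07). The Wnt effector gene Tcf7l2 was lower at -0.61 by its brightest probe. Its other tested probes stood at -0.23, -0.085 and -0.083 (limma over probes, adjusted p = 0.0024, 0.090 and 0.15). The SoxE factor gene Sox8 was lower at -0.38 and Nkx6-2 at -0.37, and Prrx1 was higher at 0.28. Sox10, the factor that drives myelin genes downstream of Olig2, did not pass, at 0.02 with a 95% interval of -0.05 to 0.09. Nkx2-2, which encodes a factor for differentiation of progenitors, did not pass either, at -0.05, by a probe well above background on 1 array in the RNA labelled KO. The signs of these last 2 values changed with the processing.

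Among progenitor surface and matrix genes, 3 of 12 tested genes were lower, 5 were higher and 3 did not pass, with a median of 0.09. Ncan, which encodes the matrix proteoglycan neurocan, was lower at -0.87. St8sia1, the synthase of the ganglioside carried by progenitors, was higher at 0.59 by its brightest probe and lower at -0.12 by its other tested probe (limma over probes, adjusted p = 0.023). Matn4 was higher at 0.42 and the tetraspanin gene Cd9 at 0.36. Cd9 stood at -0.15 when arrays were centred on their median in place of loess and did not pass there.

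The growth factor list held 6 lower and 4 higher genes among 18 tested, with a median of -0.06. Pdgfa, which encodes the ligand of the Pdgfra receptor, was higher in the RNA labelled KO, with ratios close together on the 3 arrays and a mean of 0.88 ± 0.01 (SD, n = 3; limma, adjusted p = 6.0e-07). Receptor and ligand thus stood on opposite sides, Pdgfra at -0.59 and Pdgfa at 0.88. Igf1 was lower at -0.99, the related ligand gene Pdgfb at -0.47 and the receptor gene Pdgfrb at -0.36. Bmp4, whose product directs progenitors toward astrocytes, was higher at 0.60. Shh, which induces Olig genes in the ventral neural tube, was lower at -0.21.

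Among 11 tested premyelinating genes, 3 were lower, 4 were higher and 4 did not pass, with a median of 0.06. Rras2 was higher at 0.59, Lims2 at 0.54 and Sirt2 at 0.36. Bcas1, a marker of early myelinating cells, was lower at -0.35 by its brighter probe only. Its other probe stood at 0.07 (limma over probes, adjusted p = 0.19). Of 19 tested myelin protein and lipid genes, 5 were lower, 1 was higher and 13 did not pass, with a median of -0.03. Tspan2 was lower at -0.58, Plekhb1 at -0.46 and Car2 at -0.22, and the proteolipid family gene Gpm6b was higher at 0.50. Mobp, which encodes a basic protein of myelin, did not pass at 0.06. Cldn11, the tight junction gene of myelin, was lower at -0.18, by a probe well above background on 1 array in the RNA labelled KO and on 3 in the RNA labelled WT, so that it was tested only through the RNA in which it was brighter. A further 6 myelin genes on the array were not tested, among them Opalin and Ermn.

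**Figure D4:**
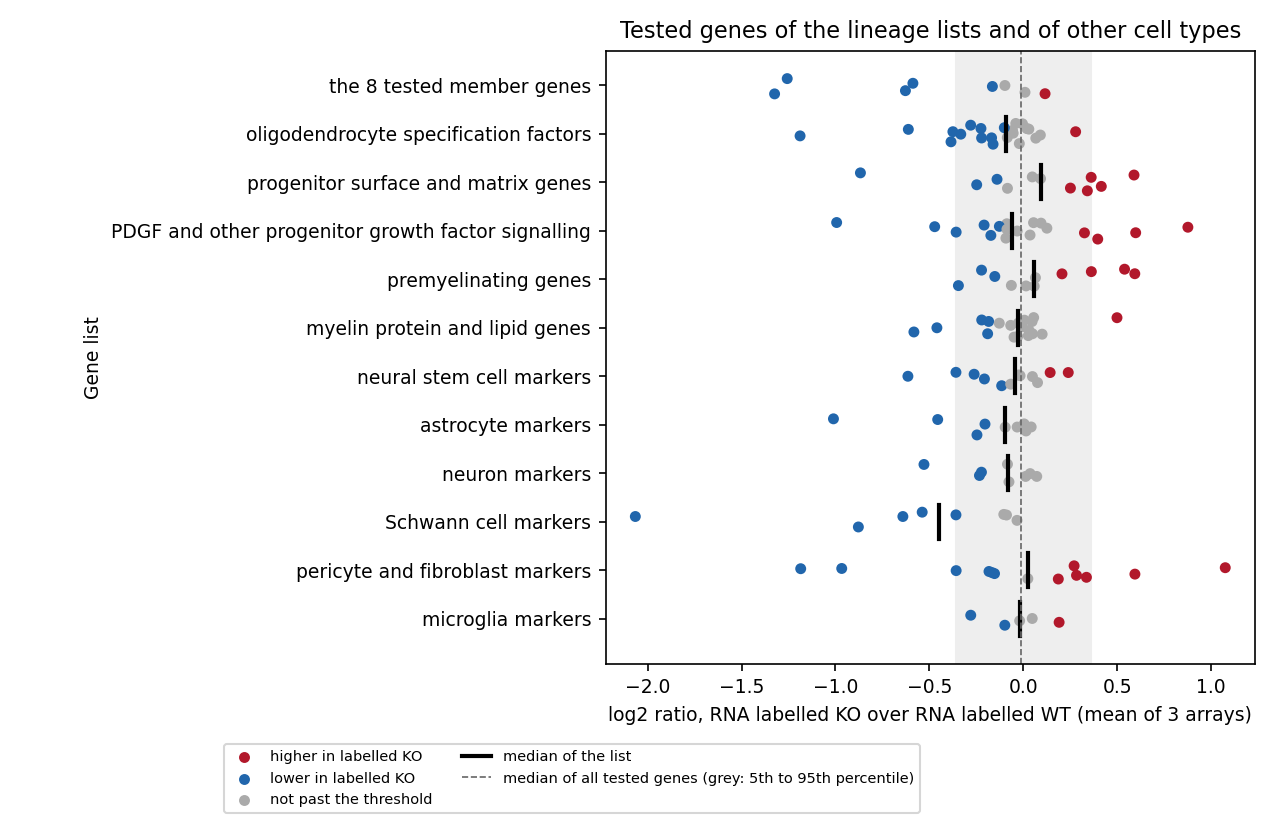
Mean log2 ratio of the RNA labelled KO over the RNA labelled WT (horizontal axis) for each tested gene of the lists (vertical axis), with genes past the threshold in blue (lower) or red (higher), others in grey, the median of each list as a black bar, and the median and central range of all tested genes as a dashed line and grey band. The medians of the 5 lineage lists lie between -0.09 and 0.09, and that of the Schwann cell list at -0.45.

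Several member genes are also expressed by other cells, Pdgfra and Cspg4 by fibroblasts and pericytes, and Mag and Mbp by Schwann cells. Markers of these cells are given for that reason, and their part in the results was not tested. Of 8 tested Schwann cell markers, 5 were lower in the RNA labelled KO and 3 did not pass, with a median of -0.45 and a summed intensity of 11009.5 to 12542.5 in the RNA labelled KO against 21085 to 23177 in the RNA labelled WT. Ngfr, which encodes the low-affinity neurotrophin receptor, was at -2.07 ± 0.11 by its brightest probe (SD, n = 3; limma, adjusted p = 7.7e-08). Its other tested probe stood at -0.57 (limma over probes, adjusted p = 9.5e-06). Pou3f1 was at -0.88, Pmp22 at -0.64 and Egr2 at -0.54. Cdh19, Dhh and Ncmap were not tested. Sox2 stands on this list and on the neural stem cell list. Pdgfrb is counted as lower both on the growth factor list and on that of pericytes and fibroblasts. Another gene of the growth factor list, not past the threshold, is also on the astrocyte list. Of 13 tested pericyte and fibroblast markers, 6 were lower, 6 were higher and 1 did not pass, with a median of 0.02 and a summed intensity of 146175 to 149823 in the RNA labelled KO against 169017 to 186382 in the RNA labelled WT. Des was lower at -1.19 and Col1a1 at -0.97, while Notch3 was higher at 1.08 and Kcnj8 at 0.60. Each sum, here and below, adds unlogged levels, so the brightest genes set it and it does not describe the whole list. Col1a1 stood at a mean log2 level of 14.59 in the RNA labelled KO against 15.56 in the RNA labelled WT.

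Of the markers of neural stem cells, the labelled cell type, 12 of 13 on the array were tested, with Nes and Sox2 well above background in both RNAs on all arrays. Of these 12, 5 were lower, 2 were higher and 5 did not pass, with a median of -0.05 and a summed intensity of 56072 to 57509 in the RNA labelled KO against 64568 to 67414 in the RNA labelled WT. Fut4 was lower at -0.61, Sox2 at -0.36 ± 0.08 (SD, n = 3; limma, adjusted p = 2.0e-04), Fabp7 at -0.26 and Nes at -0.11 (limma, adjusted p = 0.019). The 2 higher ones were Pax6 at 0.24 by its brightest probe, with another tested probe at 0.01, and Prom1 at 0.14. Among the brightest of this list, Fabp7 had a mean log2 level of 13.93 in the RNA labelled KO against 14.19 in WT. For astrocytes 4 of 9 tested markers were lower and 5 did not pass, with Aldh1l1 at -1.01 and a summed intensity of 3575 to 3579 in the RNA labelled KO against 3922 to 3960.3 in the RNA labelled WT. Gfap, their defining filament gene, was not well above background on any array. For neurons 3 of 8 were lower and 5 did not pass, with Dcx at -0.53 and a summed intensity of 1445 to 1464 in the RNA labelled KO against 1539 to 1595.5 in the RNA labelled WT. For microglia 2 of 5 were lower and 1 was higher, with sums of 949 to 978 in the RNA labelled KO against 1005 to 1037 in the RNA labelled WT, and P2ry12 and Ptprc not well above background on any array.

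Olig1 and Olig2 are neighbours, and their probes lie 43.3 kb apart on mm7, so the other tested genes within 500 kb of them were read. Of 19 such genes, 7 were lower in the RNA labelled KO, 5 were higher and 7 did not pass, with a median log2 ratio of 0.01 and a range of -0.44 to 1.16. The 2 ends of that range were Donson, a replication gene, at -0.44 and Eva1c, which encodes a membrane protein, at 1.16. The nearest tested genes after Olig1 were Ifnar2 and Il10rb, both cytokine receptor genes. Il10rb was lower at -0.19. Ifnar2 was lower at -0.16 by its brightest probe and higher at 0.27 by another. Son was likewise lower at -0.11 by its brightest probe and higher at 0.11 by another. Ifngr2 and Paxbp1 did not pass by the brightest probe, while another probe passed, at 0.34 and -0.11. The 19 include transcripts without a gene symbol, among them NAP101459-1, which was higher. None of the 19 was as far below 0 as Olig1 or Olig2. The counts stand beside 25.5% lower and 22.5% higher over all tested genes.

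The genes whose ratios on the 3 arrays were closest to those of Olig1 were Itih5, Fes and Ptgir, at Euclidean distances of 0.064, 0.081 and 0.087 log2 units. For Cspg4 they were Capn6, Fbln2 and Pon3, at 0.024, 0.071 and 0.075. These likenesses rest on 3 values per gene and reflect mainly a mean ratio of the same size.

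The direction and the call of Olig1, Olig2, Cspg4 and Pdgfra held under each processing tried, but the size moved by over 1.5 times. Olig1 ranged from -1.93 with the scanner's processed signals to -0.42 when the background model was fitted on all spots, and Olig2 from -1.16 to -0.13 under the same pair. Cspg4 ranged from -1.64 to -0.47 under that pair, and stood at -0.69 as the mean of its 3 probes. Pdgfra ranged from -1.02 with median centring to -0.44 as the mean of its probes. Centring on the median moved the median of all genes to -0.26, with 734 genes higher and 9398 lower against 4060 and 4597 with loess. Relative to that median all 4 genes were still lower. Fabp7, Pax6 and Prom1 are left aside here. Of the other list genes named above, Shh, Sox8, Cldn11, Matn4, Bcas1, Fut4 and Dcx did not pass the threshold with the model fitted on all spots. Shh, Cldn11, Matn4, Cd9, Rras2, Sirt2 and Gpm6b did not pass with median centring, and Nes did not pass without replicate 1 or without replicate 3.

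**Figure D5:**
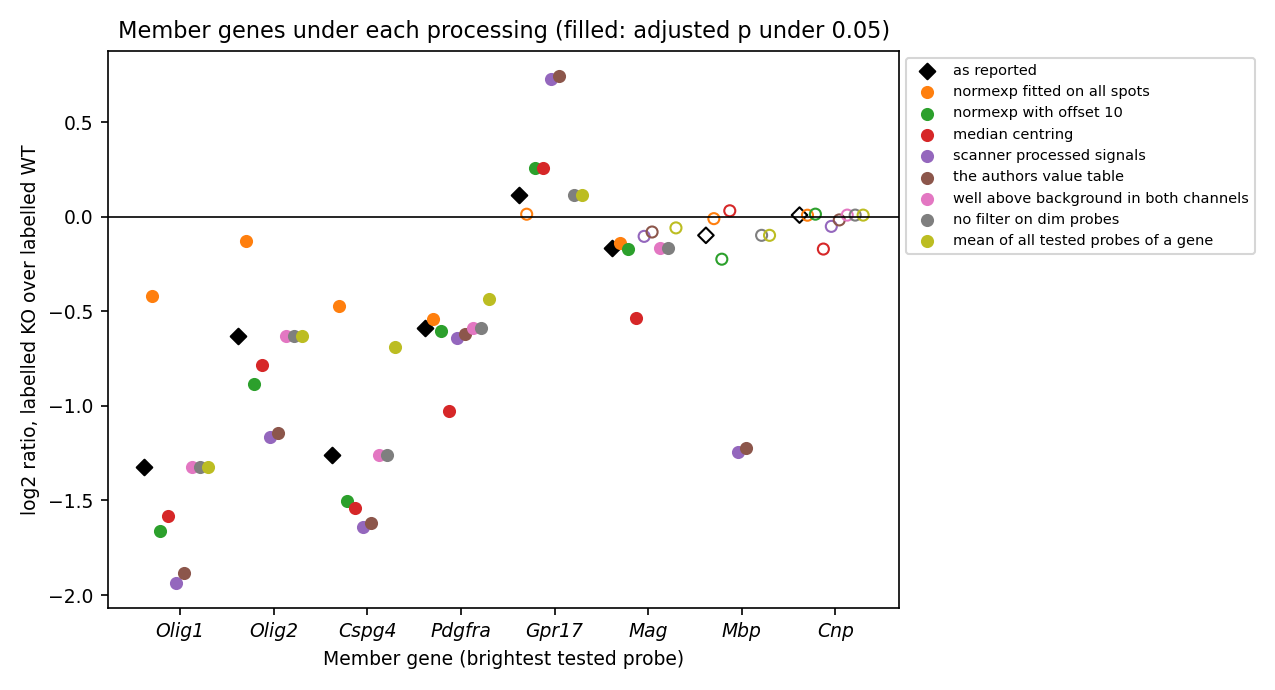
Log2 ratio of the RNA labelled KO over the RNA labelled WT (vertical axis) for the 8 tested member genes (horizontal axis) under the reported processing (black diamonds) and each alternative (coloured circles), filled where the adjusted p was under 0.05. Olig1, Olig2, Cspg4 and Pdgfra stay below 0 and filled throughout, while Mbp reaches -1.24 with the scanner's processed signals and Cnp stays unfilled.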

How the data were processed

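Per the labels, total RNA of 3 replicates was amplified to cRNA and hybridised to 3 two-colour Agilent 4x44K arrays. Feature Extraction 9.5.3.1 made the deposited scanner files, and the spot and background columns used here hold uncorrected intensity, per the file headers. The deposited processed signals are intensity that the same software had corrected for background and dye. A log10 ratio of red over green is also deposited, per the file headers, and served to check direction. The authors' deposited value table ran opposite to log2 red over green from the scanner (r = -0.998, -0.997 and -0.993 across features), so it was read as log2 of labelled KO over labelled WT. Its column medians were 0.0276, and the sources used here do not say how it was centred.

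Signals were corrected with normexp (offset 50) in limma 3.58.1 under R 4.3.3, and loess was applied to the ratios of each array, which were averaged over spots of a probe. The offset draws ratios of dim spots toward 0. Control spots and spots with the scanner's outlier marks (170, 173 and 242 per array) were left out. The model was fitted on unmarked spots, a choice taken over from earlier work that had seen its results. Of several tested probes, the brightest stood for the gene. The test was limma's lmFit and eBayes, two-sided, adjusted over all 26627 probes or 18033 genes, and was checked on simulated data. Levels are log2 intensities after loess and Aquantile normalization. Named were all member genes and probes, up to 4 genes of each list with the largest ratios past the threshold, preset textbook genes (some not reported here), the Olig neighbours and the 3 nearest ratio patterns. Members and lists were chosen with earlier results of these data known. Prom1, Prrx1, Ptprz1 and Opalin, outside these rules, were named after their values were seen. Depth on arrays is set by signal over background, and the number of arrays limits the precision. Alternatives are in the closing section.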

Additional observations from a re-analysis of the deposited data

How the results depend on the processing

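Alternatives were the background model fitted on all spots, offset 10, median centring, the scanner's processed signals, the authors' value table, a filter on both channels, no filter, the mean of a gene's probes, and leaving out each replicate. With the model fitted on all spots, 5 member probes passed the threshold in place of 9, 26 genes of the 5 lineage lists in place of 43, and 2319 genes higher and 3144 lower in all. Gpr17 was then at 0.014 (limma, adjusted p = 0.31), and ranged from 0.10 to 0.14 with 1 replicate left out. Mag did not pass with the scanner's processed signals (-0.10), the authors' table (-0.080) or the mean of its probes (-0.058). Mbp was at 0.032 with median centring, passed at -1.24 with processed signals and at -1.22 in the authors' table, and ranged from -0.14 to -0.064 with 1 replicate left out. Cnp was at -0.17 with median centring, -0.050 with processed signals and -0.016 in the authors' table, and ranged from -0.039 to 0.053 with 1 replicate left out. Sox10 was at -0.056 with median centring and -0.017 with processed signals. Nkx2-2 (0.085), Cd9 (-0.15) and Sirt2 (-0.049) changed sign with median centring. The causes were not tested. Among single genes and counts from the lists, 28 gene values kept their direction but no longer passed the threshold, and 5 changed sign. A further 9 counts moved by over 1.5 times, and 627 values did none of these. For the member genes, 6 values no longer passed the threshold, 3 newly passed it and 5 changed sign. Of their counts 2 moved by over 1.5 times, and 91 values did none of these. No paired analysis was possible beyond the reported test, because that test already pairs the RNAs of 1 replicate number within each array and the 3 arrays form 1 group. With 2 residual degrees of freedom and no dye swap, small ratios of dim probes are the least certain.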
